A study of Arabidopsis thaliana with 6 samples.

Results

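Lipid transfer proteins and their relatives are small secreted proteins whose conserved cysteines lock helices around a cavity that can hold a lipid. The genes described here belong to 4 classes of that superfamily, named as 50 loci, and 20 of them had a probe set assigned to that gene alone among the 13355 genes so measured. A probe set is a group of short oligonucleotides that together report 1 transcript. Each of the 20 had a single such probe set. The measured genes were 9 of 20 hybrid proline-rich loci, 3 of 3 type 2 lipid transfer protein (LTP) loci, 2 of 10 type 1 LTP loci and 6 of 17 glycolipid-anchored LTP loci.

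In hybrid proline-rich proteins a proline-rich stretch precedes the cysteine domain and is thought to hold the protein in the cell wall. Type 1 and type 2 LTPs are soluble apoplastic proteins that differ in size and in the spacing of their cysteines, and several are known for links to the cuticle and to defence. Glycolipid-anchored LTPs are tethered to the outer face of the plasma membrane, and some are known to be needed for the export of wax or suberin precursors.

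Transcripts were measured on expression arrays in whole 7-day-old seedlings of the Arabidopsis accession Col-0, 3 samples of wild type and 3 of cdkf;1-2, a T-DNA insertion mutant. CDKF;1 is a cyclin-dependent kinase of plants that phosphorylates related kinases and the carboxy-terminal domain of RNA polymerase II. Both genotypes grew on the same solid medium with sucrose under short days and were collected during the light period. The labels describe 1 mutant allele and call the samples biological replicates. They do not say how many seedlings each holds or whether they were grown apart. Each p-value sets the difference between genotypes against the spread between these samples, and what that spread covers is not known.

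Signals below are quantile-normalized, which gives all arrays 1 common distribution. Differences are between log2(signal + 16) values, so the added 16 shrinks those of dim transcripts. A gene is said to have risen or fallen where its limma adjusted p, corrected over all 22746 probe sets, was under 0.05. In 2 arrays the deposited median stood apart, at 64.1 in mutant replicate 1 and 114 in mutant replicate 3 against 85.0 to 104 in the other samples. Control probe sets moved with genotype too. The 25S ribosomal RNA control, taken over the array median, was 44.9 to 53.7 in wild type and 85.9 to 109 in the mutant. Ratios of 3' to 5' signal, which follow RNA integrity and labelling, were taken from 2 sets of control probe sets. For actin the ratio was 2.05 to 2.48 in wild type and 2.64 to 2.91 in the mutant in 1 set, and 8.19 to 9.40 and 9.15 to 9.55, with overlap, in the other. For GAPDH it was 0.887 to 0.960 and 1.00 to 1.07 in 1 set, and 1.15 to 1.25 and 0.951 to 1.04 in the other, so its direction depended on the set. For ubiquitin it was lower in the mutant in both, at 1.60 to 1.74 against 1.38 to 1.52 and at 2.69 to 3.21 against 1.87 to 2.67. The part of these differences in the results below was not tested.

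Of the 20 measured genes, 8 rose in cdkf;1-2, 1 fell and 11 did not pass. Over all 13355 genes, 6.57% rose and 6.52% fell. Among the 20, 6 rose at least 2-fold, against 2.55% of all genes. The median difference of the 20 was 0.41, and that of all genes -0.00086. The genes that rose came from all 4 classes, and the gene that fell was hybrid proline-rich. In 9 genes every mutant sample lay above every wild type sample, in 1 every mutant sample lay below, and in 10 the groups overlapped, where 15.1% and 16.3% of all genes were separated upward and downward. On the deposited signals, without quantile normalization, 2 of the 20 passed as risen and 1 as fallen, against 80 and 85 of all genes. With arrays scaled on the hybridisation spikes 7 rose and 1 fell, against 5.26% and 1.21% of all genes. In seedlings sampled whole, fewer cells of a type and less RNA per cell cannot be told apart.

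**Figure D1:**
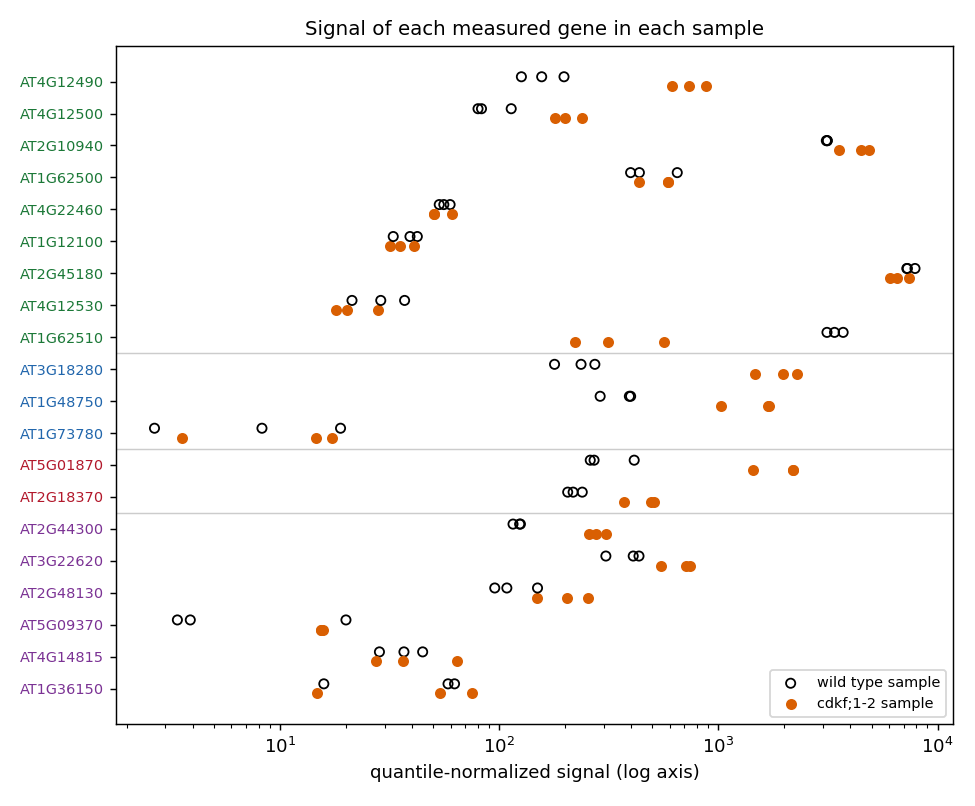
Quantile-normalized signal (log axis) of the 20 measured genes, with open circles for the 3 wild type samples and filled circles for the 3 cdkf;1-2 samples. Lines divide, from the top, hybrid proline-rich genes, type 2 LTPs, type 1 LTPs and glycolipid-anchored LTPs. The mutant samples of AT1G62510 lie far below wild type, and those of AT3G18280 and AT5G01870 far above.

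The type 2 LTP genes gave the largest rise of the family. AT3G18280 had signals of 179, 236 and 273 in wild type replicates 1 to 3 and of 1469, 1978 and 2291 in the mutant. The lowest mutant sample thus lay well above the highest wild type sample. The difference was log2 2.97 (SE 0.21, 95% interval 2.47 to 3.47, limma adjusted p = 0.0005), a 7.83-fold rise and the 7th largest among all genes. Its relative AT1G48750 had 289, 398 and 393 in wild type and 1023, 1708 and 1688 in the mutant, again without overlap. It rose 3.90-fold (log2 1.96, SE 0.23, 95% interval 1.42 to 2.50, limma adjusted p = 0.00262), which ranked 47th. This call was lost when the signals were taken as deposited (log2 2.00, adjusted p = 0.0936). The remaining type 2 gene, AT1G73780, was dim, with signals from 2.68 to 18.9 in wild type and from 3.56 to 17.3 in the mutant. Its groups overlapped and it did not pass (log2 0.11, SE 0.28).

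Both measured type 1 LTP genes rose. AT5G01870, which encodes LTP10, had signals of 260.4, 271 and 413 in wild type and of 1435, 2197 and 2182.5 in the mutant. All mutant samples were above all wild type samples, and the rise was 5.92-fold (log2 2.57, SE 0.24, 95% interval 2.01 to 3.12, limma adjusted p = 0.00101), the 15th largest among all genes. AT2G18370, which encodes LTP8, had 205, 217 and 239 in wild type and 371, 493 and 510.3 in the mutant. These groups did not overlap either, and the rise was 1.99-fold (log2 0.99, SE 0.16, 95% interval 0.63 to 1.35, limma adjusted p = 0.00708). On the deposited signals, without further scaling, AT2G18370 no longer passed (log2 0.96, adjusted p = 0.275). It passed with median centring, trimmed mean scaling and hybridisation spike scaling (adjusted p = 0.019, 0.00988 and 0.0478).

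Among the 6 measured glycolipid-anchored LTP genes 2 rose and 0 fell. AT2G44300 had signals of 124, 116 and 125 in wild type and of 277, 308 and 257 in the mutant, both groups being narrow. It rose 2.15-fold (log2 1.11, SE 0.12, 95% interval 0.82 to 1.39, limma adjusted p = 0.00199). AT3G22620 had 307, 409 and 434 in wild type and 549.8, 745 and 715 in the mutant, so the groups were again apart. Its rise was 1.72-fold (log2 0.78, SE 0.18, 95% interval 0.36 to 1.21, limma adjusted p = 0.0292). The call of AT3G22620 held in 8 of 17 alternatives, and without wild type replicate 1 it was log2 0.65 with an adjusted p = 0.0835. It also ended without wild type replicate 2 or 3 or mutant replicate 2 or 3 (adjusted p = 0.0797, 0.0511, 0.0952 and 0.093). On the deposited signals, without further scaling, AT2G44300 did not pass (log2 1.02, adjusted p = 0.113). It passed with median centring, trimmed mean scaling and hybridisation spike scaling.

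The other 4 glycolipid-anchored genes did not pass. AT2G48130, also called LTPG15 and known for a role in seed coat suberin, came nearest to the threshold. Its signals were 108, 95.5 and 149.6 in wild type and 149, 254 and 203 in the mutant, so that the lowest mutant sample was just under the highest wild type sample (log2 0.69, SE 0.22, limma adjusted p = 0.0829). Without mutant replicate 1 it passed (log2 0.89, adjusted p = 0.0318). AT5G09370 was at 3.90, 20.0 and 3.40 in wild type and at 15.6, 15.3 and 15.3 in the mutant. These values are near the added constant of 16. Of its 15 alternatives it passed in 1, without wild type replicate 2 (log2 0.67, adjusted p = 0.0391). AT4G14815 (log2 0.12, SE 0.24) and AT1G36150 (log2 0.02, SE 0.48) had signals up to 74.8 and overlapping groups.

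**Figure D2:**
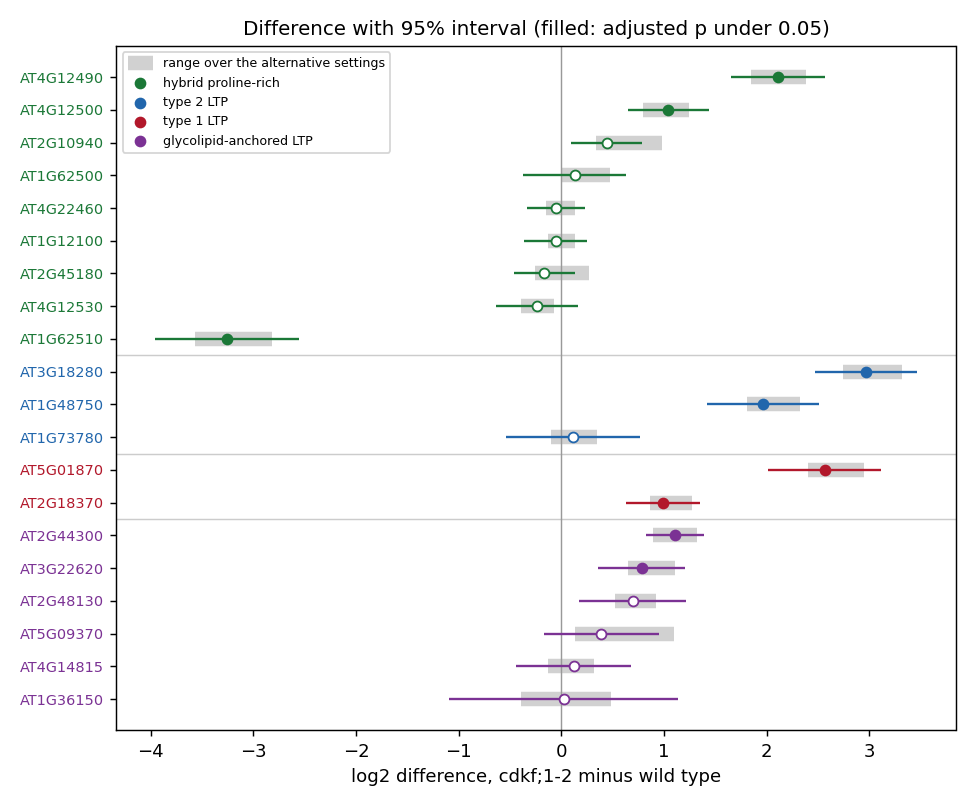
Log2 difference, cdkf;1-2 minus wild type, for the 20 measured genes, with limma's 95% interval as a coloured line (n = 3 per group) and the range over the alternative settings as a grey bar. Filled points passed the adjusted threshold of 0.05. The 8 risen genes and AT1G62510 keep their sign over their whole grey bars.

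Hybrid proline-rich genes moved in both directions. On chromosome 4 a run of such genes includes AZI1, known for priming of systemic immunity by azelaic acid, and its close relative EARLI1. AT4G12490, in that run, had signals of 126, 156 and 198 in wild type and of 613, 733 and 881 in the mutant. The lowest mutant value exceeded the highest wild type value. It rose 4.32-fold (log2 2.11, SE 0.20, 95% interval 1.65 to 2.57, limma adjusted p = 0.00106). AT4G12500 had 80.1, 83.0 and 113 in wild type and 199.6, 180.1 and 238 in the mutant, a 2.06-fold rise (log2 1.04, SE 0.17, limma adjusted p = 0.00768). The groups of this gene were apart as well. On the deposited signals, without further scaling, neither passed (log2 2.07, adjusted p = 0.0502 for AT4G12490, and log2 0.96, adjusted p = 0.192 for AT4G12500). Both passed with median centring, trimmed mean scaling and hybridisation spike scaling. Whether their probe sets also bind transcripts of close relatives in the run was not tested. AT4G12530, further along the run, was dim and overlapped, with 21.3, 37.0 and 28.8 in wild type and 28.0, 17.9 and 20.3 in the mutant. It did not pass (log2 -0.24, SE 0.17). AT4G12510 and AT4G12520, also in the run, share a probe set that fell and is described under other observations.

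On chromosome 1 the adjacent genes AT1G62510 and AT1G62500 differed. AT1G62510 had signals of 3131, 3711 and 3389.8 in wild type and of 222, 563 and 313 in cdkf;1-2. Even the highest mutant sample was far under the lowest wild type sample. The gene fell 9.58-fold (log2 -3.26, SE 0.30, 95% interval -3.96 to -2.56, limma adjusted p = 0.00101), the largest fall among all 13355 genes. Its neighbour AT1G62500, whose promoter is used to mark the root cortex, had 436, 398 and 649 in wild type and 433, 589 and 587 in the mutant. Those groups overlapped (log2 0.13, SE 0.21, 95% interval -0.37 to 0.63, limma adjusted p = 0.744).

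The change of AT1G62510 relative to AT1G62500 was also taken within each sample. The ratio of (signal + 16) of AT1G62510 to that of AT1G62500 was 6.96, 9.005 and 5.12 in wild type and 0.530, 0.958 and 0.546 in the mutant, a 10.5-fold change. The exact two-sided permutation test gave p = 0.1, the smallest that 3 samples against 3 allow. Of 5 such pairs of neighbours or relatives, all gave p = 0.1 with exact permutation and 0.1 after Benjamini-Hochberg adjustment. The ratios overlapped in none. Each change in ratio follows from the log2 differences of its genes given above, so the pairs are no separate support. The ratio of AT4G12490 to AT4G12500 rose 2.10-fold between genotypes, and that of AT4G12490 to AT4G12530 rose 5.09-fold. For AT3G18280 to AT1G48750 it rose 2.01-fold, and for AT5G01870 to AT2G18370 it rose 2.98-fold. In each of these 4 pairs the ratio was higher in every mutant sample than in every wild type sample, but with 3 samples per group no such test can fall below the threshold. The signals of AT4G12530 lie near the added 16, so its ratio depends on that constant.

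The other hybrid proline-rich genes did not pass. AT2G10940 came nearest to the threshold, at 3110.1, 3139 and 3139 in wild type and 3540.0, 4866 and 4456 in the mutant. Its wild type samples were almost equal and all its mutant samples were above them (log2 0.44, SE 0.15, limma adjusted p = 0.0911). The call was made without mutant replicate 1 (log2 0.56, adjusted p = 0.0218). AT2G45180, known as DRN1 and linked to disease responses, had 7288, 7895 and 7244 in wild type and 6064, 7443 and 6511 in the mutant, with overlap (log2 -0.17, SE 0.13). AT4G22460 (log2 -0.05, SE 0.12) and AT1G12100 (log2 -0.06, SE 0.13) stayed between 31.9 and 60.6 in all samples.

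The genes were also set out by signal. In 7 of the 20 genes the mean signal was below the median of all probe sets, 91.7, and 0 of these 7 passed in either direction (limma), with 0 also at an unadjusted p under 0.05. Of the 13 brighter genes 9 passed. Over all genes, 8.67% of those below that median and 18.5% of those above it passed in either direction. With a pseudocount of 1, which compresses dim signals less, none of the 7 passed either, and AT5G09370 had the largest difference among them (log2 1.10, limma adjusted p = 0.305).

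**Figure D3:**
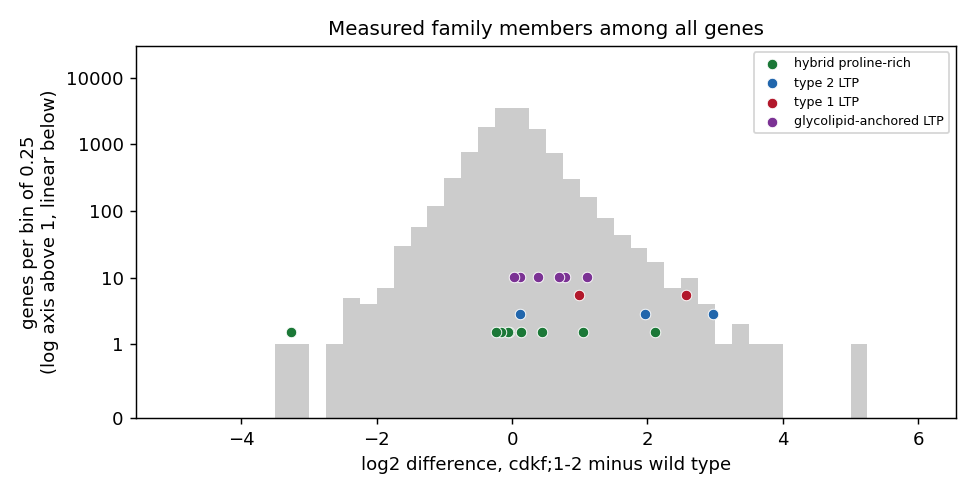
Number of genes per bin of log2 difference, cdkf;1-2 minus wild type, over 13355 genes (grey bars, vertical axis logarithmic above 1), with the 20 measured family members as points coloured by class. The height of a point carries no value and only separates the classes. AT1G62510 is at the left end of the distribution at -3.26, and most other members lie at or above 0.

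The samples within a genotype also differed. In 7 of the 8 risen genes wild type replicate 1 was the lowest wild type sample, and in 6 of the 8 mutant replicate 1 was the lowest mutant sample. Over all 878 risen genes these shares were 44.5% and 51.3%. AT1G62510 was also lowest in replicate 1 of each genotype. Mutant replicate 1 is the array with the lowest deposited median. Without it, 10 members passed as risen and 1 as fallen, while over all genes 9.00% rose and 7.66% fell. In that fit the rises of AT3G18280, AT5G01870, AT4G12490 and AT1G48750 were log2 3.16, 2.78, 2.25 and 2.21.

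Gene order around the members was read from the RefSeq annotation of assembly TAIR10.1. Within 3 protein-coding genes on either side of the 9 called members lay 41 genes that were not listed members, and 15 of them were measured. Of these 15, 1 rose and 0 fell. That is 6.67% called, against 13.1% of all genes in either direction, of which 6.57% rose and 6.52% fell. At an unadjusted limma p under 0.05, 4 of the 15 were higher and 0 lower, while 13.4% of all genes were higher. The share of all genes lower at that level was not counted. The median difference of the 15 was 0.18. The gene that rose was AT3G18250, 3 genes away from AT3G18280 (log2 1.77, limma adjusted p = 0.00254), named after its value was seen. The genes measured around AT1G62510 had differences from -0.29 to 0.32. Those around AT5G01870 had differences of 0.10 and 0.18. No further listed member directly beside a called one was measured, other than AT1G62500.

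**Figure D4:**
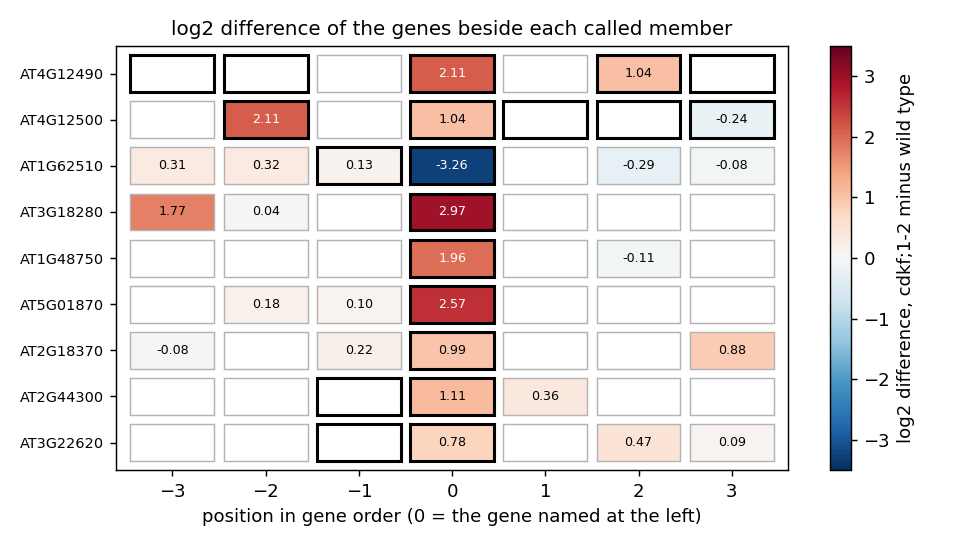
Log2 difference, cdkf;1-2 minus wild type, of the genes up to 3 places to either side of each called member, in annotation order. White boxes had no single-gene probe set, and heavy outlines mark listed family members. Beside the blue box of AT1G62510 at -3.26, its neighbour AT1G62500 stands at 0.13.

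Genes of processes in which these proteins take part were sparsely measured. Measured means here that the array annotation used assigned a probe set to that gene alone. It listed no gene for 8730 probe sets, and whether genes counted as not measured lie among these was not checked. Of 37 cuticle wax and cutin genes 2 were measured, 1 rose and 0 fell. The riser was AT5G33370, of the GDSL lipase family that includes cutin synthases, with 10.4, 13.0 and 14.9 in wild type and 30.1, 59.7 and 46.4 in the mutant (log2 1.07, SE 0.19, limma adjusted p = 0.0119). Its wild type signals lie under the added 16, so the fold depends on that constant. WSD1, a wax ester synthase, was at or below 19.2 in all samples and did not pass. Of 11 suberin genes 0 were measured.

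Of 20 genes of systemic resistance 4 were measured and 0 passed in either direction by limma. An unadjusted limma p under 0.05 was reached by 2 upward and 1 downward, while 13.4% of all genes reached it upward. The share of all genes reaching it downward was not counted, so the downward count cannot be set against it. AT5G48490, itself a lipid transfer protein resembling DIR1, a carrier of systemic immune signals, had 1322, 1388 and 1436 in wild type and 516, 1184 and 907 in the mutant (log2 -0.74, SE 0.28, adjusted p = 0.125). All of its mutant samples were below wild type without passing. AT5G52810 (log2 0.71, SE 0.20, adjusted p = 0.0552) and UGT76B1 (log2 0.53, SE 0.17, adjusted p = 0.0773) were higher in every mutant sample and did not pass either. Of 30 arabinogalactan, extensin and proline-rich wall proteins 1 was measured, HRGP1 (log2 -0.40, SE 0.15, adjusted p = 0.136), on a probe set type that may cross-hybridise.

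Markers of cell types that express these families could be checked only in part. Of 8 root hair genes 2 were measured, with a summed signal of 210.3 to 225 in wild type and of 56.2 to 126 in the mutant. EXPA18 fell (log2 -0.73, SE 0.17, limma adjusted p = 0.028), and EXPA7 did not pass (log2 -1.42, SE 0.41, adjusted p = 0.062). Of 7 stomatal lineage genes 3 were measured and 0 passed (limma), with sums of 218 to 250.3 and of 171 to 214. At an unadjusted limma p under 0.05, 1 of the 3 was lower, and the share of all genes lower at that level was not counted. None of the listed seed, leaf mesophyll, epidermis or root endodermis markers was measured on a single-gene probe set, so the seedling label was not checked against them. The part of differing root or epidermal content in the fall of AT1G62510 or in the rises was not tested.

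Members not analysed here for lack of a single-gene probe set in the annotation used numbered 30. They include AZI1, EARLI1, AIR1, CWLP and ELP among the hybrid proline-rich loci, LTP2, LTP3, LTP4, LTP5, LTP6 and LTP12 among type 1 LTPs, and LTPG1, LTPG2, XYP1 and XYP2 among the glycolipid-anchored ones.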

How the data were processed

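The authors deposited 1 linear intensity per probe set and sample for 22810 probe sets. They were made with GCOS, per the submitters' processing notes. How GCOS was set, and whether arrays were scaled to each other, is not given here. Intensities were quantile-normalized, 16 was added and log2 taken. The 64 control probe sets were left out, and limma 3.58.1 (R 4.3.3) was run on the other 22746 (genotype as the only term, two-sided, Benjamini-Hochberg over all probe sets, threshold 0.05, no filter on dim probe sets). Every adjusted p in the text is from limma. Detection calls were not used. The fit was tested on simulated data. The number of arrays limits the precision.

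Genes were named from the array annotation and the RefSeq gene table: 13513 probe sets had 1 gene, 503 several and 8730 none listed. The brightest probe set stood for a gene. All members with a single-gene probe set were named, and up to 4 called genes of each related list. Members, classes and lists were chosen with earlier results of these data known. No genome build is named for the array, and genome positions are therefore left out. Samples were not treated as pairs by replicate number, since the labels do not say whether equal numbers belong together. Deviations of samples with the same number correlated at 0.30, 0.0086 and 0.15, and those with different numbers at -0.24 to 0.15. These values do not settle whether the samples are paired. Alternatives covered scaling, pseudocounts of 1 and 64, filters on dim probe sets, the variance prior, array weights, the replicate block and leaving out each sample.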

Additional observations from a re-analysis of the deposited data

How the results depend on the processing

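The 17 alternatives gave 325 differences of single members, of which 287 kept their direction and side of the threshold, 14 lost the call, 8 gained one and 16 changed sign. None of the sign changes concerned a member that had passed. AT3G18280, AT5G01870 and AT1G62510 passed in all 17. The count of risen members, 8, was 2 on the deposited signals and 7 to 10 when a sample was left out, and that of fallen members was 1 throughout. The count of called probe sets, 3267, was 328 on the deposited signals, 1624 with hybridisation spike scaling, 2122 with a pseudocount of 1, 5612 with array weights and 1496 to 4107 when a sample was left out. Spike scaling moved the median of all probe sets by 0.18, and 81.4% of its called genes were higher against 50.2%, with 7 members risen and 1 fallen. The replicate block gave 3382 called probe sets and 8 risen and 1 fallen members. Not every sample correlated best with its own replicate number.

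Sign changes were seen under spike scaling for AT1G12100 (0.13), AT4G22460 (0.14) and AT2G45180 (0.27, and 0.035 with median centring). AT1G36150 changed to -0.057 on the deposited signals, -0.059 with the trimmed mean and -0.34 with array weights, and ranged from -0.40 to 0.48 when a sample was left out. AT4G14815 changed to -0.13 with array weights and ranged from -0.13 to 0.31 when a sample was left out. The corresponding ranges were -0.0047 to 0.34 for AT1G62500, -0.099 to 0.35 for AT1G73780 and -0.13 to 0.00093 for AT1G12100. The causes were not tested. Each measured member had 1 single-gene probe set, so averaging probe sets was not run. Filters on dim probe sets removed the dim members, for which they gave no value.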

Other observations

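On the array, 2 further probe sets were each annotated to a pair of adjacent hybrid proline-rich loci of the list. The pairs are AT4G12510 with AT4G12520, in the chromosome 4 run, and AT5G46890 with AT5G46900. These probe sets were left out of the counts because the signal cannot be assigned to either gene of a pair. Which of the 2 probe sets below belongs to which pair is not given here, and their order carries no meaning. One had signals of 1004, 1131 and 1305 in wild type and of 80.8, 95.01 and 185 in cdkf;1-2. It fell 8.94-fold (log2 -3.16, SE 0.27, limma adjusted p = 0.000789) and passed in all 17 alternatives, with differences from -3.40 to -2.75. The other had 1047, 1232 and 1383 in wild type and 445, 674 and 713 in the mutant, and fell 2.00-fold (SE 0.20 on the log2 scale, limma adjusted p = 0.019). It passed in 12 of 17 alternatives, with differences from -1.12 to -0.58 and an adjusted p = 0.378 on the deposited signals. In both, every mutant sample lay below every wild type sample, as in 16.3% of all genes. With AT1G62510, these made 3 probe sets of hybrid proline-rich loci that were lower in the mutant, beside AT4G12490 and AT4G12500, which were higher. For comparison, 6.52% of all genes fell and 6.57% rose, counted on single-gene probe sets. No such share was taken over probe sets annotated to several genes.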
